A study of Arabidopsis thaliana with 29 samples.

Results

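The cysteine-rich receptor-like kinases (CRKs) and the receptor-like proteins (RLPs) of Arabidopsis thaliana were followed in leaves of plants that over-express GLUTAMINE DUMPER (GDU) genes. The members were the rows of the authors' 7 deposited comparison tables whose gene column holds a CRK or RLP name followed by a number, 87 of the 32650 rows of each table. CRK names stood on 34 rows, of which 32 were cysteine-rich receptor-like kinases and 2, a CRK1 and a CRK3 on chromosome 2, were calcium-dependent protein kinase-related (CDPK-related) kinases that share the symbol and are given apart. The 32 CRK rows covered 38 genes, and RLP names stood on 53 rows that covered 53 genes. RNA of leaves was sequenced as paired reads of 100 bp in 29 libraries, each from 4 to 6 plants grown for 23 days, and 27 of the libraries enter the comparisons.

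The inducible line was Dex-GDU1, sampled at 25 h and at 7 h after the spray (3 libraries each), in which dexamethasone induces GDU1, set against its parental line 4c-S7 at the same times (4 libraries each). Both lines received 100 µM dexamethasone with 300 ppm Silwet L-77, so the spray itself is shared, and a difference between the lines that exists without dexamethasone would be part of the comparison. Every library of both lines is also listed with 7 h under a dome and 5 h after dawn. The lines share this, but the 2 times may differ in how long after the dome leaves were taken. The constitutive lines were gdu1-1D (3 libraries) and plants carrying GDU2, GDU4, GDU5 or GDU6 under the 35S promoter (2 libraries each), unsprayed, against unsprayed Col wild type (2 libraries). These 5 comparisons use the same Col libraries, so they are not independent of one another. The 35S-GDU1 and 35S-GDU3 groups have 1 library each and are not analysed here. GDU1 encodes a small membrane protein whose over-expression is known to make leaves secrete glutamine. Its row stood at 3362 FPKM (fragments per kilobase of transcript, scaled to the mapped fragments of the library) in Dex-GDU1 leaves against 6.52 FPKM in 4c-S7 at 25 h, and at 5281 against 23.3 at 7 h. In the constitutive lines the targeted gene read 294 FPKM in gdu1-1D, 4706 in 35S-GDU2, 3198 in 35S-GDU5 and 30183 in 35S-GDU6, against 2.72 to 9.14 FPKM in Col. In the libraries labelled 35S-GDU4 the GDU4 row read 10.9 FPKM against 8.72 in Col and was not called, on a row that shares a long stretch with other genes, and the label is kept in that form throughout. Other GDU genes were also called higher in each 35S line. GDU6 read 60.6 FPKM in 35S-GDU5 against 10.1 in Col, and 36.4 in 35S-GDU2 against 9.46. In the libraries labelled 35S-GDU4 GDU2 read 12.0 against 2.63 and GDU5 5.28 against 2.58. In gdu1-1D GDU6 was called lower, at 6.76 against 9.78. Among leaf markers, CA1 and GAPB of the mesophyll stood between 979 and 5561 FPKM in every group. The root marker EXPA7 stayed at or below 0.026 FPKM. Another root marker, PYK10, was called higher in every constitutive line, up to 65.5 FPKM in 35S-GDU5 against 0.270 in Col. The mesophyll gene RBCS1A was listed at 0 in several groups, so a value of exactly 0 need not mean absence.

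A CRK is a receptor kinase of the plasma membrane with extracellular domains rich in cysteines and a cytoplasmic kinase domain, and many CRKs of leaves are known from responses to reactive oxygen, pathogens and abscisic acid. An RLP carries leucine-rich repeats outside the cell but no kinase domain, and for defence the RLPs work through the adaptor kinase SOBIR1 and the co-receptor BAK1. Members of both families lie in tandem arrays along the chromosomes.

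Upstream sequence is shown for 8 genes because the W-box, the binding site of WRKY factors in plant defence genes, is a feature that the naming rule did not use. CRK6, CRK11, CRK14, RLP20, RLP23 and RLP28 belong to rows that were higher in at least 2 comparisons, CRK13 had no W-box core and was higher in all 7 comparisons, and CRK21 was lower in 5 comparisons. The 8 were picked after their values were seen. Each window is the 250 bases before the annotated start in the RefSeq TAIR10.1 genome, written in the direction of the gene, with the core TTGAC of either strand (GTCAA on the other strand) in capitals.
CRK6: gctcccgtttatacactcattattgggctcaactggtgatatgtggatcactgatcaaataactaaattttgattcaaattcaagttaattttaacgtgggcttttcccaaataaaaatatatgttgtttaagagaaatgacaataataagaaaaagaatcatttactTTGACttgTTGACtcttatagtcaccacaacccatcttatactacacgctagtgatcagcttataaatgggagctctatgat
CRK11: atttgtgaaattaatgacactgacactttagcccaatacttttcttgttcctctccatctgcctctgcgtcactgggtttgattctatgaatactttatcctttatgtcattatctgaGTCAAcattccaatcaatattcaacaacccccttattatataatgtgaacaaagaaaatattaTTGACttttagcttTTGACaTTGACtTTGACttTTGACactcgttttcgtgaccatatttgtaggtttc
CRK13: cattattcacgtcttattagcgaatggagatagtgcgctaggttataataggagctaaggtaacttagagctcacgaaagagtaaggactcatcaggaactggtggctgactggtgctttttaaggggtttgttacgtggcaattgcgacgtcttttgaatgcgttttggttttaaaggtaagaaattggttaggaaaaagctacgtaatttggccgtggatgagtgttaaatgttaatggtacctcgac
CRK14: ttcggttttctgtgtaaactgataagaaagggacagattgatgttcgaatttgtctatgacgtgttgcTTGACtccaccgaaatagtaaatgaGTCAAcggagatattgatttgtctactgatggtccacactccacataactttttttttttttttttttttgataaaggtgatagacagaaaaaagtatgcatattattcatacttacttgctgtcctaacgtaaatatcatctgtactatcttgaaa
CRK21: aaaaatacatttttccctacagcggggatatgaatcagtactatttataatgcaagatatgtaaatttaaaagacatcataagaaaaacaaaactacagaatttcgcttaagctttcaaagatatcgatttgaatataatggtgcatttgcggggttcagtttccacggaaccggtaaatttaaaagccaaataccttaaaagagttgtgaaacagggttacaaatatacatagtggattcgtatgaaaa
RLP20: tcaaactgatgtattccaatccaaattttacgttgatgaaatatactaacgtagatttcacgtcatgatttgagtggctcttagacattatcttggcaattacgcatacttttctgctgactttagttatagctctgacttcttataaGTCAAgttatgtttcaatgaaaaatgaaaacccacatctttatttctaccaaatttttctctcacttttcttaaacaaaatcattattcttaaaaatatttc
RLP23: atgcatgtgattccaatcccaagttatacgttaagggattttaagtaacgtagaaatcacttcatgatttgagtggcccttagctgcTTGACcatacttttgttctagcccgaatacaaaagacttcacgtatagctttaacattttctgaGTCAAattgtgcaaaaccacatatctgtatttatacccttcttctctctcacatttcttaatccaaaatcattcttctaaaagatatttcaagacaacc
RLP28: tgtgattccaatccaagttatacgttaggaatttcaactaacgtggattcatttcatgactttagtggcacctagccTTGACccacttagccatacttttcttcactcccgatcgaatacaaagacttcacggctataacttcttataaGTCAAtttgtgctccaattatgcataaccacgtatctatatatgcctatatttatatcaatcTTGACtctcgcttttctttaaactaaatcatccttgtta
The windows are those of CRK6 (chr4:12121119-12121368, plus strand), CRK11 (chr4:12143859-12144108, minus strand), CRK13 (chr4:12151639-12151888, minus strand), CRK14 (chr4:12156882-12157131, minus strand), CRK21 (chr4:12180937-12181186, minus strand), RLP20 (chr2:10826485-10826734, plus strand), RLP23 (chr2:13862615-13862864, minus strand) and RLP28 (chr2:14031748-14031997, plus strand).

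The extended W-box, TTGACC or TTGACT on either strand, was present in 25 of the 38 CRK windows (65.8%) and 28 of the 52 RLP windows (53.8%) that the annotation gives, against 7797 of 27443 windows of protein-coding nuclear genes (28.4%). The core TTGAC alone, which every extended W-box contains, was present in 73.7% of CRK windows, 76.9% of RLP windows and 44.9% of all windows. Windows with 3 or more cores made up 18.4% of the CRK genes, 5.77% of the RLP genes and 3.38% of all genes. CRK11 with 6 cores had the most among the members. In the authors' coordinates the CRK11 row spans chr4:12141025-12144958, so its window lies inside the row and the RefSeq start differs from the row's end. Most of the CRK14 window also lies inside its row, which ends at 12157091, and other windows can overlap their rows too. TGACG, which overlaps the core where a T precedes it and a G follows, was present in 31.6% of CRK windows, 23.1% of RLP windows and 18.6% of all windows. These counts describe the windows and were not tested. The 10 CRK genes with no core within 250 bases were CRK2, CRK3, CRK28, CRK30, CRK40 and, in 1 array on chromosome 4, CRK12, CRK13, CRK19, CRK21 and CRK22. Their rows went both ways, as CRK13 was higher in 7 comparisons and CRK2 in 6, CRK21 was lower in 5, and CRK22 was not called.

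The upstream windows of RLP20, RLP23 and RLP28 resembled one another, and the genes lie on chromosome 2 without being direct neighbours. In global alignments 183 of 250 bases of RLP23 were identical in RLP28 (73.2%), 173 (69.2%) in RLP20, and the median over all 1326 RLP pairs was 51.2%. Only the pair RLP39 and RLP41, at 79.6%, was more alike than RLP23 and RLP28, and RLP43 with RLP53 reached 72.4%. The window of RLP24 was 64.8% identical to that of RLP20, 63.2% to RLP23 and 61.2% to RLP28. The closest CRK pair, CRK6 and CRK7, reached 62.4% against a median of 51.6% over 703 pairs.

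In unsprayed Col leaves, in the table of the gdu1-1D comparison, 8 of the 32 CRK rows and 7 of the 53 RLP rows stood at 10 FPKM or more. The order among the CRK rows began with CRK21 at 52.4 FPKM, followed by the joined row of CRK16, CRK17 and CRK18 at 42.7, CRK40 at 36.0, CRK22 at 22.5 and CRK4 at 20.8. Among the RLP rows RLP4 led with 29.7 FPKM, then RLP57 with 27.9, RLP19 with 21.7, RLP54 with 18.5 and RLP47 with 16.3. The rows of RLP4 and RLP57 also hold other genes, so their values cannot be assigned to the RLP alone. Below 1 FPKM stood 9 CRK rows and 26 RLP rows, and CRK33, RLP5 and RLP25 were listed at 0 in every group. FPKM is scaled to transcript length, so these levels can be set side by side, but each is a single group value of the authors with no spread, and neighbours in the order are not told apart.

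A row was tested where the authors' deposited table gives a test (status OK) and called where its q-value is below 0.05. The p-values come from the authors' Cuffdiff fit over 2 to 4 libraries a group. The labels number these as biological replicates and do not say whether they were grown apart, so the p-values measure the spread between these libraries, which may be partly technical. Fold changes below are log2 of line over control, and their standard errors were worked back from the deposited p through a normal deviate. At the smallest p of the tables (5e-05) they are upper bounds under that normal reading only. Each is then a fixed fraction of its change and does not measure the spread of that row. Errors from the deposited test statistic called fewer differences between times, 398 in place of 2951 over all rows. In whole leaves, a higher level per cell and more cells that express the gene cannot be told apart.

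At 25 h after dexamethasone, CRKs and RLPs stood above the parental line in most tested rows. Of the 26 CRK rows tested (of 32) 16 were higher and 2 lower, and of the 39 RLP rows tested (of 53) 23 were higher and 3 lower, where 24.5% of all tested rows were called higher and 21.6% lower. The median change was 0.41 over the tested CRK rows, 0.43 over the RLP rows and 0.00 over all 17652 tested rows. A weakly expressed row can become testable through the group in which it is high, so these counts and medians describe the tested rows and not the families. Without the rows that join several genes, 24 CRK rows remain in place of 32, and 11 were called at 25 h in place of 18. The lower count goes with fewer rows and is not a lower share by itself. At 7 h 3 of 27 tested CRK rows were higher and 1 lower, and 4 of 39 RLP rows were higher and 0 lower by the authors' Cuffdiff test, with 0 lower at an unadjusted p under 0.05 as well. All rows at 7 h were called higher in 8.76% and lower in 7.19% of cases, so the share of members called at 7 h was near that of the table.

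**Figure D1:**
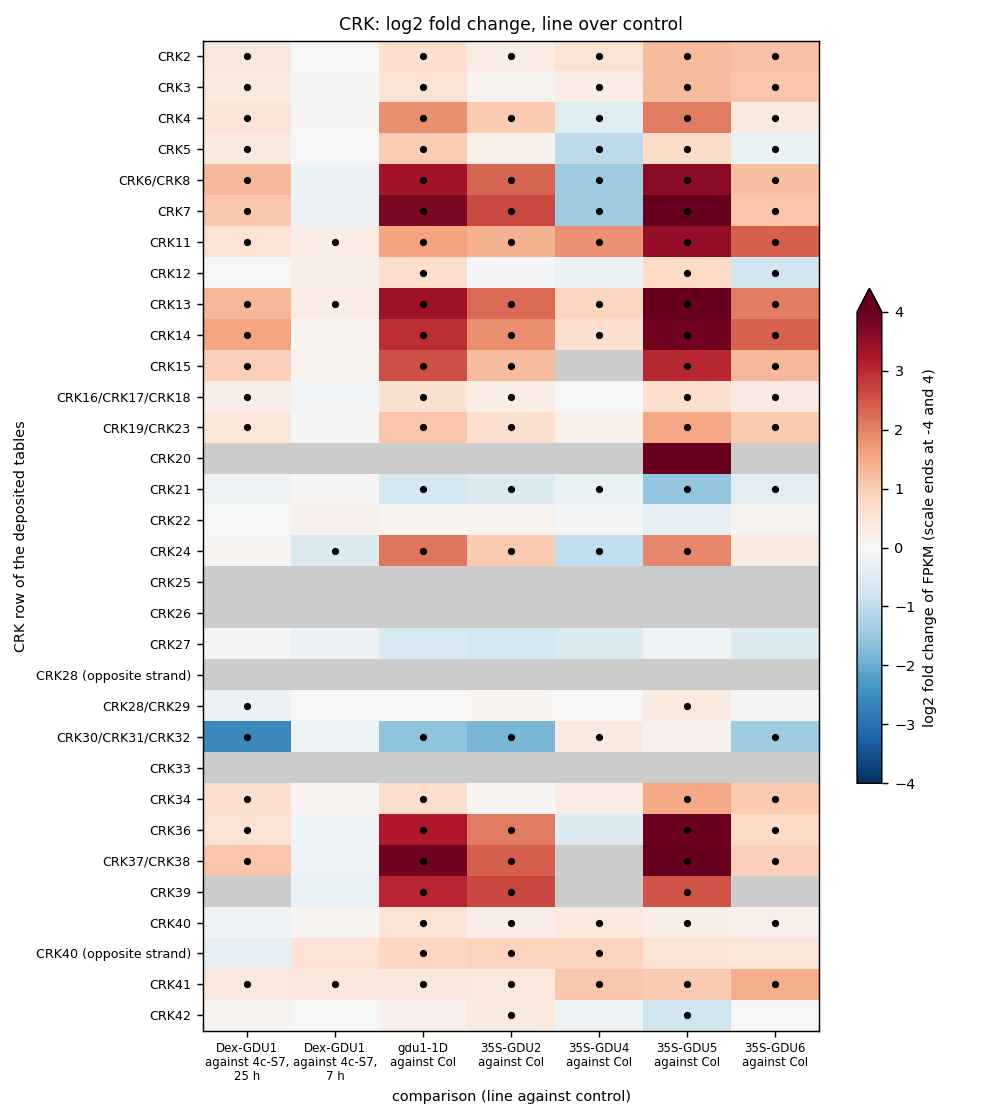
Log2 fold change of FPKM, line over control, for the 32 CRK rows (down) in the 7 comparisons (across); red is higher in the line, blue lower, grey not tested, and a black dot marks a deposited q-value below 0.05. The 7 h column is pale with 4 dots, the gdu1-1D and 35S-GDU5 columns are the darkest red, and CRK21 and the row of CRK30, CRK31 and CRK32 stay blue in most columns.

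CRK14 had 6.09 FPKM in Dex-GDU1 leaves against 2.05 in 4c-S7 at 25 h, the largest called change among the CRK rows that were higher (1.57 ± 0.39 SE, q = 0.00019 in the authors' deposited table). CRK13, whose over-expression is known to cause cell death and raise salicylic acid, had 4.28 FPKM in Dex-GDU1 against 1.72 in 4c-S7 at 25 h and was higher by 1.31 ± 0.32. At 7 h CRK13 had 10.1 FPKM against 8.23, a called change of 0.30 ± 0.08 (q = 0.00247 in the authors' deposited table). In both lines its level at 25 h was below that at 7 h.

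The row of CRK6 and CRK8 stood at 10.9 FPKM in Dex-GDU1 against 4.42 in 4c-S7 at 25 h, and at 11.0 against 13.0 at 7 h. CRK7, which like CRK6 is known to act in responses to extracellular reactive oxygen, had 6.16 against 2.93 FPKM at 25 h and 6.40 against 7.46 at 7 h. For both rows the level in Dex-GDU1 was nearly the same at the 2 times, and the level in 4c-S7 was lower at 25 h than at 7 h. The row of CRK37 and CRK38 had 2.35 FPKM in Dex-GDU1 against 1.1 in 4c-S7 at 25 h, called higher, and 2.46 against 2.84 FPKM at 7 h.

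Levels at 25 h were also set against those at 7 h within each line. Rows above 0 at both times with at least 1 FPKM in that line at either time were used. In Dex-GDU1, 18 of 26 CRK rows (69.2%) and 21 of 36 RLP rows (58.3%) were lower at 25 h, with median log2 ratios of -0.18 and -0.21, where 73.6% of all rows were lower with a median of -0.25. In 4c-S7, 21 of 26 CRK rows (80.8%) and 27 of 32 RLP rows (84.4%) were lower at 25 h, with medians of -0.69 and -0.46, where 73.5% of all rows were lower with a median of -0.24. The 2 tables were normalized separately, and the times fall at different hours of the day and may differ in time since the dome. Rows were chosen in each line apart, so the 36 RLP rows of Dex-GDU1 and the 32 of 4c-S7 are not the same set. A row can enter through the line and time in which it is high, so the shares of the lines are not directly comparable. No test of these ratios was made.

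CRK2, a kinase known to phosphorylate the oxidase RBOHD, had 22.4 FPKM in Dex-GDU1 against 16.3 in 4c-S7 at 25 h (0.46 ± 0.11) and 22.5 against 22.2 at 7 h. CRK4, known to associate with the flagellin receptor FLS2, had 39.2 against 27.4 FPKM at 25 h and 52.6 against 51.1 at 7 h. CRK36, known to act with CRK45 in abscisic acid responses, had 9.30 against 6.22 FPKM at 25 h and 14.8 against 16.6 at 7 h. All of these 3 were called higher at 25 h and none was called at 7 h. Called higher at 7 h, besides CRK13, were CRK41 with 15.0 against 10.9 FPKM and CRK11 with 9.39 against 7.59. Called lower at 7 h was CRK24 with 1.02 against 1.53 FPKM.

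The CRK rows that fell at 25 h were the joined row of CRK30, CRK31 and CRK32, at 0.425 FPKM in Dex-GDU1 against 2.54 in 4c-S7 (-2.58 ± 0.64), and the joined row of CRK28 and CRK29, at 5.69 against 6.65 (-0.23). CRK28 is known to form complexes with BAK1 and to cause cell death when over-produced. A joined row covers several genes under 1 value, so its change cannot be assigned to a single gene. The rows of RLP1, RLP4, RLP35, RLP57, CRK27, CRK34, of RLP40 with RLP41 and of the CDPK-related CRK1 also hold genes of other families or names.

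Among the RLPs with a known ligand, RLP23, the receptor of the peptide nlp20 from microbial necrosis-inducing proteins, had 14.0 FPKM in Dex-GDU1 against 7.40 in 4c-S7 at 25 h (0.92 ± 0.23, q = 0.00019 in the authors' deposited table) and 9.85 against 9.21 at 7 h. RLP42, the receptor of fungal endopolygalacturonases, had 7.56 against 3.22 FPKM at 25 h (1.23 ± 0.30) and 4.74 against 4.20 at 7 h. RLP32, the receptor of a bacterial translation initiation factor, had 10.1 against 6.23 FPKM at 25 h (0.69 ± 0.17) and 14.1 against 11.2 at 7 h (0.33 ± 0.08), and was called higher at both times. RLP1, which is needed for sensing the Xanthomonas elicitor eMax, stood on a row joined with 2 other genes at 4.76 against 3.49 FPKM at 25 h, called higher. RLP30, which mediates the response to an elicitor of Sclerotinia, had 1.37 against 1.19 FPKM at 25 h (0.20 ± 0.33) and was not called.

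The largest called changes of RLPs at 25 h were in RLP38, with 7.40 FPKM in Dex-GDU1 against 2.28 in 4c-S7 (1.70 ± 0.42), and in the joined row of RLP40 and RLP41, with 14.1 against 4.77 (1.56 ± 0.39). RLP34 had 22.8 against 11.6 FPKM at 25 h and 24.3 against 26.9 at 7 h. RLP39 with 1.19 against 0.404 FPKM, RLP53 with 1.04 against 0.411, RLP43 with 2.29 against 1.05 and RLP7 with 1.22 against 0.581 were also higher at 25 h. Lower at 25 h were RLP26, with 5.89 FPKM against 8.55 (-0.54 ± 0.13), RLP45, with 4.01 against 5.05, and RLP55, with 0.518 against 0.855. At 7 h the called RLP rows besides RLP32 were RLP33 with 9.04 against 7.57 FPKM, RLP31 with 14.2 against 11.9 and RLP2 with 0.853 against 0.549, all higher.

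The change at 25 h was set against that at 7 h in each row tested at both times, by the difference of the log2 changes over its standard error with Benjamini-Hochberg adjustment over 17114 rows. Of 26 CRK rows 13 had a more positive change at 25 h and 2 a more negative one, and of 35 RLP rows 11 were more positive and 3 more negative, where 10.4% of all rows were more positive and 6.88% more negative. The largest differences were 1.55 ± 0.33 for the row of CRK6 and CRK8, 1.51 ± 0.40 for CRK14, 1.73 ± 0.45 for the row of RLP40 and RLP41 and 1.62 ± 0.46 for RLP38, with adjusted p-values of at most 0.00705 from a normal approximation across all genes. CRK13 differed by 1.02 ± 0.33 and RLP23 by 0.83 ± 0.24. On the negative side stood the row of CRK30, CRK31 and CRK32 with -2.39 ± 0.65, the row opposite to CRK40 with -0.93 ± 0.35, RLP26 with -0.64 ± 0.16, RLP31 with -0.43 ± 0.11 and RLP45 with -0.32 ± 0.11. With standard errors taken from the deposited test statistic in place of the p-value, 3 CRK rows and 1 RLP row differed between the times, and over all rows 398 differed in place of 2951.

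**Figure D2:**
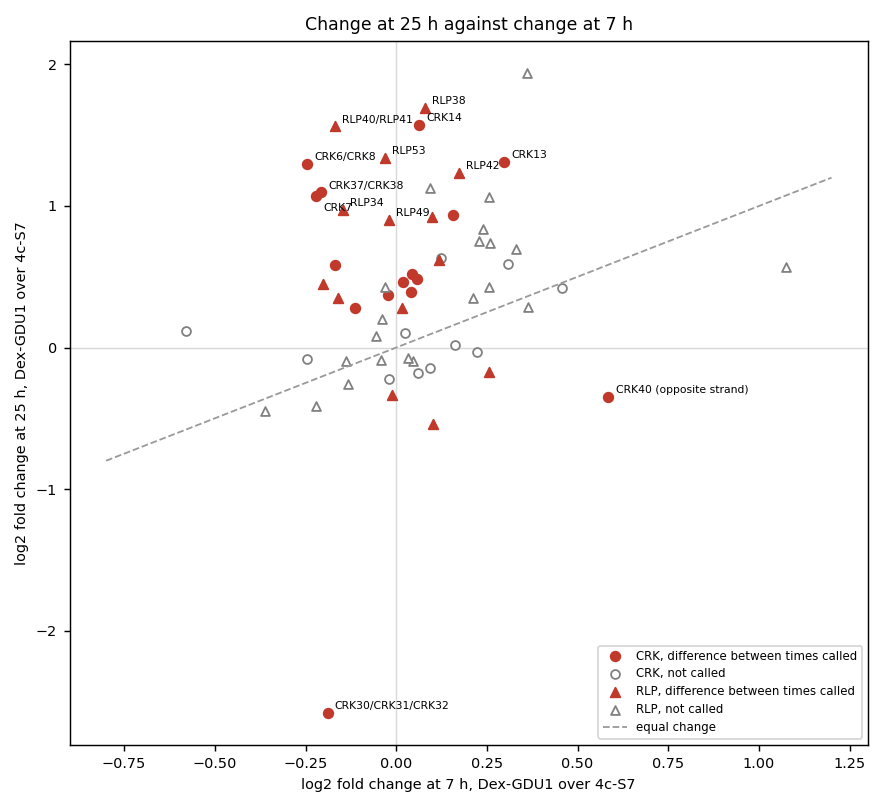
Log2 fold change of Dex-GDU1 over 4c-S7 at 25 h (vertical) against that at 7 h (horizontal) for the 26 CRK rows (circles) and 35 RLP rows (triangles) tested at both times; filled red symbols differ between the times at an adjusted p below 0.05, and the dashed line marks equal change. Most red symbols lie above the line with a 7 h change near 0, and the row of CRK30, CRK31 and CRK32 lies lowest, at -2.58 at 25 h.

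In gdu1-1D, the constitutive line in which GDU1 itself is over-expressed, most tested CRK and RLP rows stood above Col. Of the 27 tested CRK rows 21 were higher and 2 lower, and of the 44 tested RLP rows 27 were higher and 4 lower, against 23.1% of all tested rows higher and 21.4% lower. The median change was 0.85 over the CRK rows and 1.03 over the RLP rows, and 13 CRK rows and 21 RLP rows were called higher by 2-fold or more, as were 6.93% of all tested rows. The row of CRK37 and CRK38 had 8.45 FPKM in gdu1-1D against 0.585 in Col (3.85 ± 0.95), CRK7 14.1 against 1.04 (3.77 ± 0.93), CRK13 5.43 against 0.515 (3.40 ± 0.84) and the row of CRK6 and CRK8 34.7 against 3.49 (3.32 ± 0.82). Each of these 4 rows has the smallest q-value of that authors' deposited table, 0.000209. CRK36 had 15.7 against 1.72 FPKM, CRK39 1.97 against 0.238, CRK14 10.4 against 1.36 and CRK15 4.99 against 0.839, all called higher.

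RLP23 had 36.1 FPKM in gdu1-1D against 4.04 in Col (3.16 ± 0.78), and RLP34 had 50.3 against 7.34 (2.78 ± 0.68). RLP11 had 1.77 against 0.0831 FPKM, RLP53 1.54 against 0.153, RLP39 2.16 against 0.231, the row of RLP40 and RLP41 26.0 against 2.92, RLP43 3.97 against 0.507 and RLP20 2.58 against 0.370, all called higher. RLP52, known for resistance to powdery mildew, had 0.811 against 0.0921 FPKM (3.14 ± 0.77). Lower in gdu1-1D than in Col were CRK21, with 31.9 against 52.4 FPKM (-0.72 ± 0.18), the row of CRK30, CRK31 and CRK32 with 0.951 against 2.93, RLP26 with 6.33 against 9.53, RLP45 with 4.26 against 5.48, RLP31 with 7.47 against 8.98 and RLP55 with 0.529 against 0.990. CRK22 with 24.5 against 22.5 FPKM, well expressed, was tested and not called. So were the rows of RLP4, with 30.6 against 29.7 FPKM, and RLP57, with 26.3 against 27.9, which also hold other genes.

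**Figure D3:**
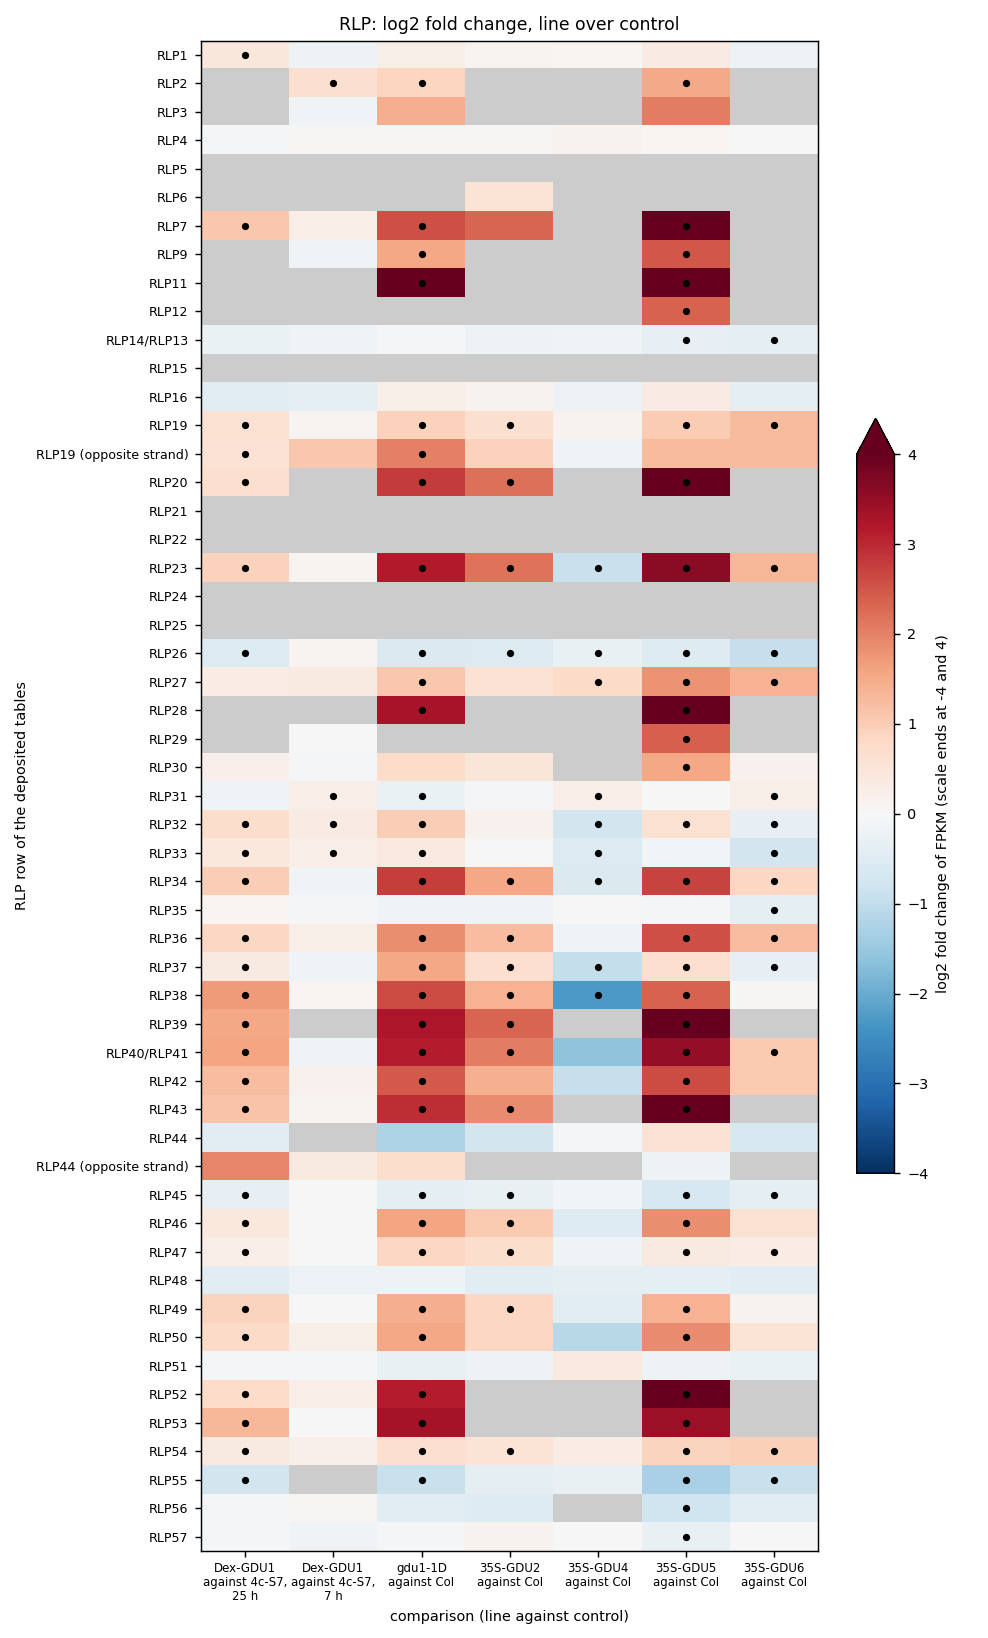
Log2 fold change of FPKM, line over control, for the 53 RLP rows (down) in the 7 comparisons (across), with colours and dots as for the CRK rows. The 35S-GDU5 and gdu1-1D columns hold 34 and 31 dots, the 7 h column holds 4, and the 35S-GDU4 column is mostly blue or grey.

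In 35S-GDU5 the median change was 1.41 over the tested CRK rows and 1.46 over the tested RLP rows. Of 28 tested CRK rows 21 were higher and 2 lower, and of 46 tested RLP rows 28 were higher and 6 lower, where 28.5% of all tested rows were higher and 26.5% lower. The row of CRK37 and CRK38 had 16.2 FPKM in 35S-GDU5 against 0.606 in Col (4.74 ± 1.17), CRK7 22.4 against 1.07, CRK13 10.8 against 0.534, CRK36 26.9 against 1.78 and CRK14 20.5 against 1.41. RLP11 had 4.40 against 0.0862 FPKM, RLP28 2.85 against 0.0826, RLP52 2.65 against 0.0954, RLP39 4.69 against 0.239 and RLP7 3.92 against 0.211, and RLP23 reached 50.8 against 4.19, all called higher. CRK21 fell to 18.0 FPKM in 35S-GDU5, against 54.3 in Col (-1.59 ± 0.39), and CRK42 to 5.76, against 10.1. RLP55 had 0.419 against 1.02 FPKM, RLP45 3.64 against 5.68, RLP26 6.86 against 9.87, RLP56 0.513 against 0.894, the row of RLP14 and RLP13 6.36 against 7.92 and RLP57 23.3 against 28.9, all lower.

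In 35S-GDU2, 18 of 27 tested CRK rows were higher and 2 lower, and 14 of 37 tested RLP rows were higher and 2 lower, against 14.5% and 10.2% of all tested rows. CRK39 had 1.47 FPKM in 35S-GDU2 against 0.231 in Col, CRK7 6.2 against 1.00, the row of CRK37 and CRK38 2.94 against 0.566, the row of CRK6 and CRK8 17.1 against 3.38 and CRK13 2.42 against 0.499, all called higher. RLP39 with 1.11 against 0.224 FPKM, RLP20 with 1.64 against 0.358, RLP23 with 17.6 against 3.91, the row of RLP40 and RLP41 with 11.6 against 2.83 and RLP43 with 1.84 against 0.491 were the largest called RLP changes among rows of at least 1 FPKM. The rows that fell were that of CRK30, CRK31 and CRK32 (0.801 against 2.84 FPKM), CRK21 (34.4 against 50.7), RLP26 (6.32 against 9.23) and RLP45 (4.28 against 5.31).

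In 35S-GDU6 the CRK rows were mostly higher, and the RLP rows were called in both directions at similar numbers. Of 26 tested CRK rows 16 were higher and 4 lower, while of 32 tested RLP rows 9 were higher and 8 lower, where 24.9% of all tested rows were higher and 23.9% lower, so the RLP shares were near those of the table. CRK11 had 6.72 FPKM in 35S-GDU6 against 1.29 in Col (2.38 ± 0.59), CRK14 6.51 against 1.27, CRK13 2.00 against 0.482, CRK41 26.7 against 9.72 and CRK15 1.95 against 0.785, all called higher. RLP27 had 2.30 against 0.885 FPKM, RLP23 9.56 against 3.78, RLP19 49.2 against 20.3, RLP36 3.72 against 1.58 and the row of RLP40 and RLP41 5.59 against 2.73, all called higher. Lower were the row of CRK30, CRK31 and CRK32 with 1.02 against 2.74 FPKM, CRK12 with 1.29 against 2.25, CRK21 with 36.1 against 49.0 and CRK5 with 4.81 against 5.84. Among RLPs RLP26 had 4.73 against 8.91 FPKM, RLP33 1.00 against 1.67, RLP45 3.95 against 5.13, RLP35 8.77 against 11.4 and the row of RLP14 and RLP13 5.51 against 7.14. RLP37 with 3.42 against 4.29, RLP32 with 3.89 against 4.88 and RLP55 with 0.495 against 0.926 were the other RLPs called lower in 35S-GDU6.

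In the libraries labelled 35S-GDU4 members were called in both directions. Of 24 tested CRK rows 9 were higher and 6 lower, and of 30 tested RLP rows 2 were higher and 7 lower, where 9.65% of all tested rows were higher and 5.71% lower. CRK7 had 0.358 FPKM in the libraries labelled 35S-GDU4 against 0.970 in Col (-1.44 ± 0.45), the row of CRK6 and CRK8 1.23 against 3.26 (-1.41 ± 0.35), CRK5, known from abscisic acid responses, 2.82 against 5.85 (-1.05 ± 0.26), CRK24 0.548 against 1.09, CRK4 13.9 against 19.5 and CRK21 41.1 against 49.0. RLP38 had 0.380 against 1.87 FPKM (-2.29 ± 0.80), RLP37 2.24 against 4.30, RLP23 2.03 against 3.78 (-0.90 ± 0.22), RLP32 2.97 against 4.89, RLP34 4.65 against 6.87, RLP33 1.15 against 1.68 and RLP26 7.33 against 8.92. In the same libraries CRK11 had 4.57 against 1.30 FPKM (1.82 ± 0.45), CRK41 20.6 against 9.74 (1.08 ± 0.27), CRK14 2.03 against 1.27, CRK13 0.875 against 0.482 and CRK2 16.0 against 10.8, all higher. Also higher were CRK3, CRK40 with the row opposite to it, and the row of CRK30, CRK31 and CRK32 at 3.54 against 2.75 FPKM. RLP27 with 1.5 against 0.886 FPKM and RLP31 with 10.2 against 8.42 were the RLPs called higher. At a q-value below 0.01, 6 CRK rows were higher and 3 lower, and the 5 RLP rows still called were lower.

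**Figure D4:**
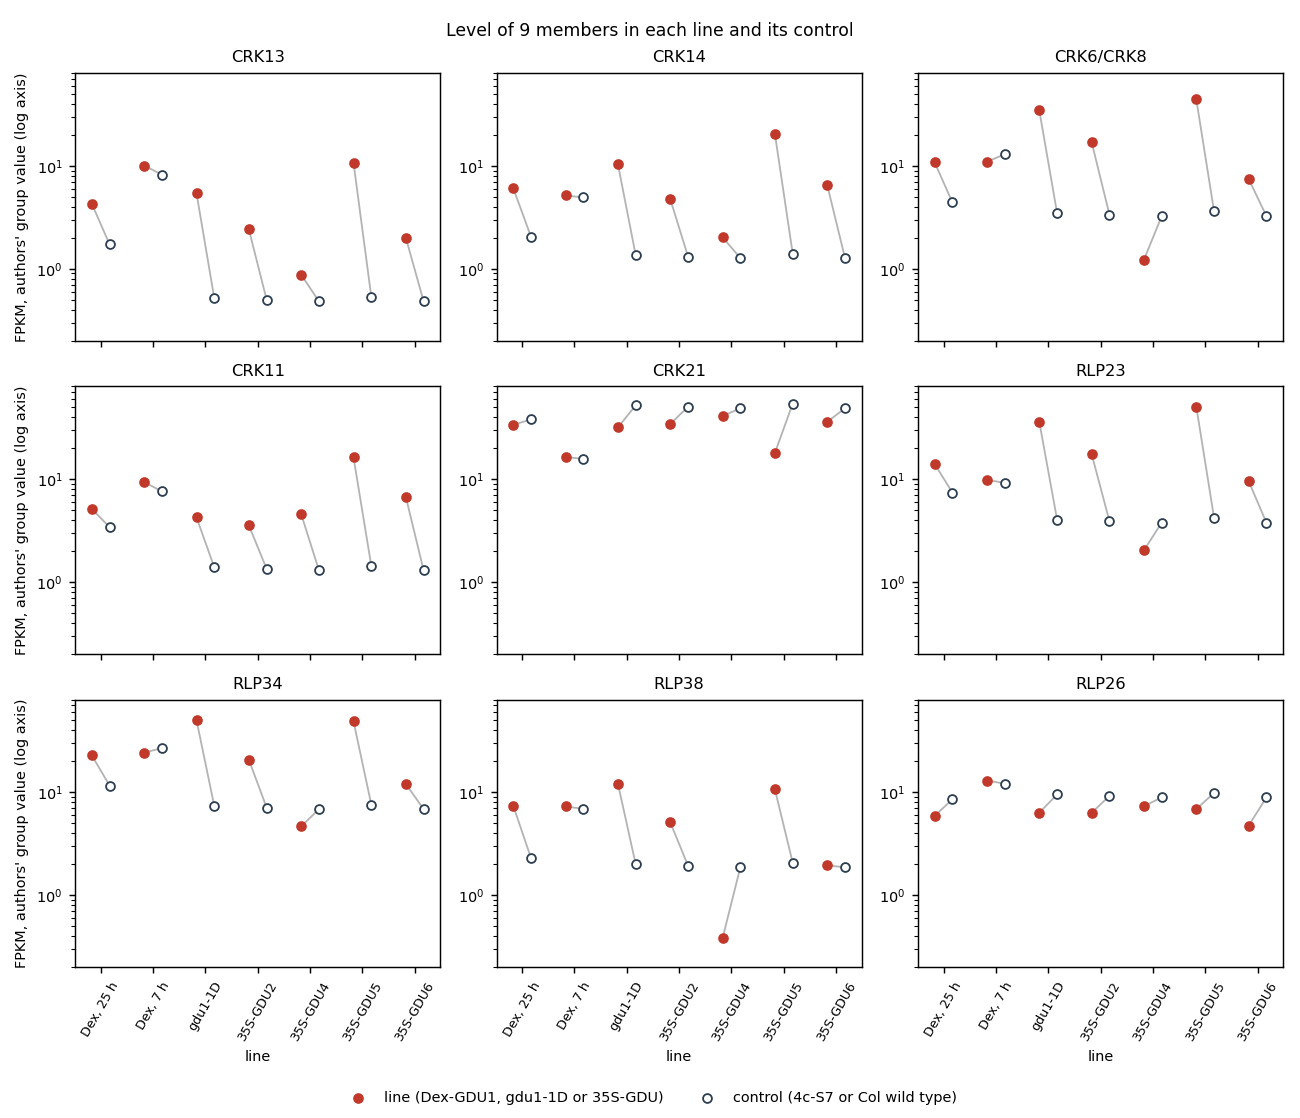
FPKM (log axis) of 9 members in each line (filled red, left of each pair) and its control (open, right), as the authors' group values. CRK13, CRK14 and CRK11 lie above the control in every pair, CRK6/CRK8, RLP23, RLP34 and RLP38 lie below it in the libraries labelled 35S-GDU4, and CRK21 and RLP26 lie below it in most pairs.

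Across the 7 comparisons 25 of the 32 CRK rows and 39 of the 53 RLP rows were called at least 1 time, while 4 CRK rows and 6 RLP rows were tested in none. Of the rows tested at least 1 time, this is 89.3% of the CRK rows and 83.0% of the RLP rows, where 75.3% of all such rows were called. CRK11, CRK13 and CRK41 were called in all 7, each time higher. CRK7, the row of CRK6 and CRK8, CRK14, CRK2 and CRK4 were called in 6. Of the RLPs, RLP23, RLP34, RLP37, RLP32 and RLP26 were called in 6, and RLP26 was the one among these that was lower each time. RLP51, known as SNC2, had between 9.22 and 14.6 FPKM in the lines and was not called in any comparison, and its row lies in a stretch of 137835 bases that 42 rows share. RLP44, known from brassinosteroid and cell wall signalling, had 0.735 FPKM in gdu1-1D against 1.73 in Col and was not called in any comparison. CRK20, known to be induced by bacterial infection, was listed between 0 and 1.08 FPKM in the lines and was tested only in 35S-GDU5, where it had 1.08 against 0.0197 FPKM and was not called. The row of the CDPK-related CRK1, which also holds another gene, had 24.2 FPKM in Dex-GDU1 against 19.6 in 4c-S7 at 25 h (0.31). That row was lower in 35S-GDU5, with 20.03 against 25.7 in Col, and in 35S-GDU6, with 17.8 against 23.2 in Col. The CDPK-related CRK3 had 5.39 FPKM in 35S-GDU5 against 4.48 in Col, called higher.

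The one large array of CRKs lies at chr4:12117518-12191977 in the coordinates of the authors' tables. It has 14 rows from CRK5 to CRK24 whose starts are at most 20 kb apart. CRK9 and CRK10, listed under other names, lie between CRK8 and CRK11 by locus number and are not in the counts below. Both were called higher in gdu1-1D, and in the libraries labelled 35S-GDU4 CRK10 was called higher and CRK9 was not called. In gdu1-1D 11 of its 13 tested rows were higher and 1 lower, with changes between -0.72 and 3.77, beside 23.1% higher and 21.4% lower over all rows. In the libraries labelled 35S-GDU4 3 of 12 tested rows were higher and 5 lower, between -1.44 and 1.82, beside 9.65% higher and 5.71% lower over all rows. Neighbours differed: CRK11 was higher there and CRK12, beside it, was not called, and CRK21 was lower in 5 comparisons while CRK22, the next gene, was not called in any. CRK24, at the end of the array, was higher in 3 comparisons and lower in 2. The rows of CRK19 with CRK23, CRK20, CRK21 and CRK22 share a stretch of 17987 bases in the tables. Rows on the other strand were also listed, and the CRK40 row opposite to the gene, at 3.33 FPKM in gdu1-1D against 1.84 in Col, was called higher as was the CRK40 row itself, at 52.9 against 36.0. Reads of a gene and of its antisense partner cannot be told apart without strand, so this row and those opposite to RLP19, RLP44 and CRK28 are uncertain. Of the members 1 CRK gene, CRK6, and 3 RLP genes, RLP40, RLP42 and RLP48, had over 10% of their exonic windows of 100 bases in more than 1 copy. CRK8, on the row of CRK6, had 9.96%. Only exact copies in the genome were counted, so this does not show how well reads of near-identical relatives were told apart. RLP39, RLP40 with RLP41, and RLP42 share a stretch of 25989 bases in the tables, so their values may not be fully separate.

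**Figure D5:**
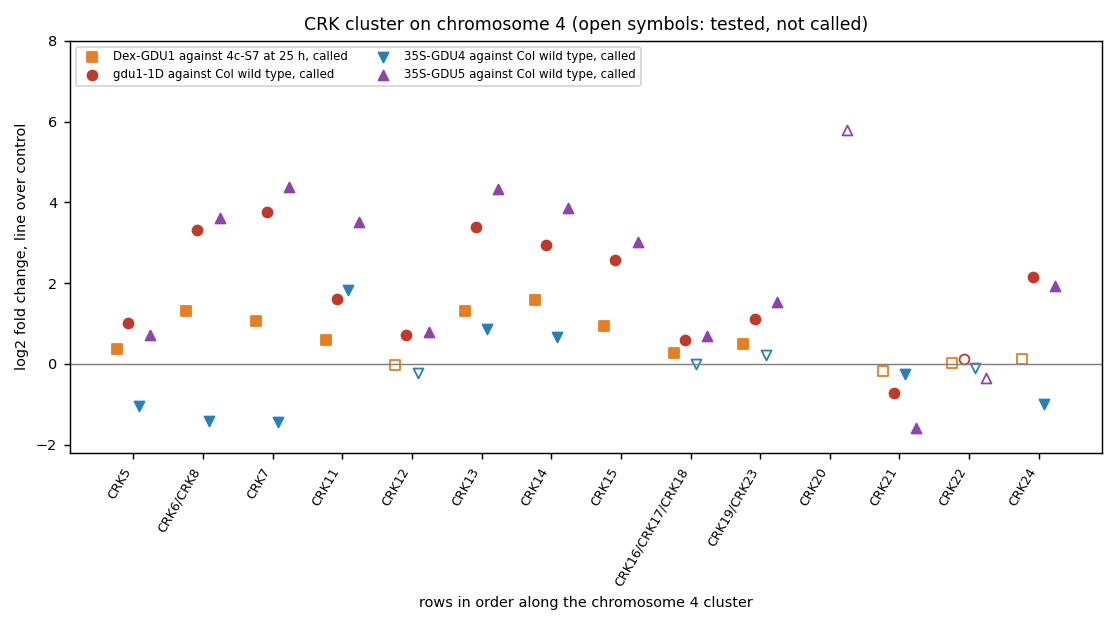
Log2 fold change of the 14 CRK rows in their order along the chromosome 4 array, for Dex-GDU1 at 25 h, gdu1-1D, the libraries labelled 35S-GDU4 and 35S-GDU5; filled symbols are called, open ones tested and not called. CRK5 to CRK7 point down in the libraries labelled 35S-GDU4 and up in the other 3, CRK11, CRK13 and CRK14 point up in all 4, and CRK21 lies at or below 0.

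Family genes that the tables list under other names, and that the naming rule therefore left out, included CRK10 with 42.8 FPKM in Dex-GDU1 against 21.2 in 4c-S7 at 25 h and 52.6 in the libraries labelled 35S-GDU4 against 15.7 in Col. CRK45, which acts with CRK36, had 20.7 FPKM in Dex-GDU1 against 7.6 in 4c-S7 at 25 h, called higher, and 15.8 against 20.1 at 7 h, not called. It stood at 35.0 FPKM in gdu1-1D against 2.10 in Col, called higher. CLV2 (RLP10), a receptor of the shoot meristem, had 3.40 against 3.46 FPKM at 25 h and was called only in 35S-GDU5, with 3.19 against 3.95, and TMM (RLP17), of the stomatal lineage, was not called in any comparison.

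The partners of RLPs and of pattern receptors, a list of 22 genes, were higher in 18 genes and lower in 2 at 25 h, where 24.5% of all rows were higher and 21.6% lower. The 8 called at 7 h were all higher, where 8.76% of all rows were. Of the same 22 genes, 17 were higher and 2 lower in gdu1-1D, 14 higher and 1 lower in 35S-GDU2, and 18 higher and 2 lower in both 35S-GDU5 and 35S-GDU6. Over all rows 23.1% were higher and 21.4% lower in gdu1-1D, 14.5% and 10.2% in 35S-GDU2, 28.5% and 26.5% in 35S-GDU5, and 24.9% and 23.9% in 35S-GDU6. The libraries labelled 35S-GDU4 had 9 higher and 2 lower, against 9.65% and 5.71% of all rows. SOBIR1, the adaptor kinase of RLPs, had 76.5 FPKM in Dex-GDU1 against 35.4 in 4c-S7 at 25 h and 78.2 against 61.8 at 7 h. It had 105 FPKM in gdu1-1D against 18.6 in Col, 190 in 35S-GDU5 against 19.3, and 37.6 in the libraries labelled 35S-GDU4 against 17.4, where RLP23 was lower. BIR1, a kinase that restrains SOBIR1-dependent defence, had 28.3 against 15.4 FPKM at 25 h, and 15.4 in the libraries labelled 35S-GDU4 against 7.75. BAK1 had 15.4 against 13.1 FPKM at 25 h and 23.0 in 35S-GDU5 against 11.4, called higher in both. The oxidase RBOHD had 27.1 against 14.4 FPKM at 25 h, 34.0 against 26.3 at 7 h and 51.0 in 35S-GDU5 against 16.1. PAD4, a lipase-like partner of EDS1 in receptor signalling, had 35.2 FPKM in gdu1-1D against 13.6, and 9.04 in the libraries labelled 35S-GDU4 against 12.7, called lower. The flagellin receptor FLS2 was lower at 25 h, with 5.60 against 6.89 FPKM, in gdu1-1D, in 35S-GDU2, with 4.00 against 6.60, and among the libraries with the 35S-GDU4 label.

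The 8 partners of CLV2 and TMM were called in both directions, with 1 higher and 2 lower at 25 h, 1 higher and 1 lower at 7 h, and 1 higher and 3 lower in 35S-GDU2. In gdu1-1D the 4 called, CLV1, ERL1, ERL2 and STOMAGEN, were lower, and 4 were lower in 35S-GDU6 as well. In 35S-GDU5 4 were higher, among them ER with 35.7 FPKM against 22.3 in Col, and 2 lower, and the 1 called in the libraries labelled 35S-GDU4 was higher. These counts, of 7 or 8 tested in each comparison, stand beside 23.1% higher and 21.4% lower over all rows in gdu1-1D, and 28.5% and 26.5% in 35S-GDU5. The shares over all rows were 24.5% and 21.6% at 25 h, 8.76% and 7.19% at 7 h, and 14.5% and 10.2% in 35S-GDU2. They were 24.9% and 23.9% in 35S-GDU6, and 9.65% and 5.71% in the libraries labelled 35S-GDU4. Of the 8 plasmodesmata-located proteins, which share the CRK ectodomain without the kinase, PDLP5 had 15.2 FPKM in 35S-GDU5 against 1.78 in Col and 6.13 in Dex-GDU1 against 3.00 in 4c-S7 at 25 h, while PDLP3 had 15.8 against 34.3 FPKM at 25 h. Of the 7 tested, 3 were higher and 1 lower at 25 h, and 1 was higher and 3 lower in gdu1-1D, beside the shares over all rows just given.

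Genes known to answer to touch and handling were called beside the members, as 9 of 9 tested were higher at 25 h, 9 of 10 at 7 h, and 9 of 9 in each constitutive line. Over all tested rows 24.5% were higher and 21.6% lower at 25 h, and 8.76% and 7.19% at 7 h. In the constitutive lines between 9.65% and 28.5% of all tested rows were higher and between 5.71% and 26.5% lower. The touch list also holds the WRKY factors WRKY40 and WRKY53 and is not specific to touch. The summed level of its genes was 443 FPKM in Dex-GDU1 against 249 in 4c-S7 at 25 h, and 688 against 325 at 7 h. It was between 360 and 1363 FPKM in the constitutive lines against 109 to 121 in Col. Of the mesophyll markers 3 were tested, CA1, GAPB and LHCB1.1. All were lower in gdu1-1D and 35S-GDU5, with CA1 at 2237 FPKM in 35S-GDU5 against 5561 in Col. None was called at 25 h or in the libraries labelled 35S-GDU4. In 35S-GDU2 and 35S-GDU6 CA1 and GAPB were lower and LHCB1.1 was not called, at 6811 FPKM in 35S-GDU6 against 6590 in Col, and LHCB1.1 was higher at 7 h. The 3 vascular markers summed to 230 FPKM in Dex-GDU1 against 166 in 4c-S7 at 25 h, with SUC2 and IRX3 called higher, and to 116 FPKM in 35S-GDU5 against 152 in Col, with SUC2 and APL called lower. In gdu1-1D, 35S-GDU2 and 35S-GDU6 SUC2 was higher and APL lower. Guard cell and stomatal markers summed to 35.8 FPKM in Dex-GDU1 against 44.7 in 4c-S7 at 25 h (4 of 5 lower), 41.0 in gdu1-1D against 55.3 in Col (3 of 5 lower) and 29.98 in 35S-GDU5 against 57.3 (4 of 5 lower, 1 higher). All 5 were lower in 35S-GDU2 and in 35S-GDU6, and 1 in the libraries labelled 35S-GDU4. The root marker PYK10 was called higher in every constitutive line. It had 65.5 FPKM in 35S-GDU5 against 0.270 in Col, 4.74 in gdu1-1D against 0.260, and 2.31 in the libraries labelled 35S-GDU4 against 0.243. The root markers EXPA7 and COBL9 were at or near 0. Of the epidermis and trichome markers, ATML1 was lower at 25 h and in gdu1-1D, and nothing else was called. The flower marker AG, at most 1.34 FPKM in any group, was higher at 25 h. It was lower in gdu1-1D, 35S-GDU5, 35S-GDU6 and the libraries labelled 35S-GDU4. PI, another flower marker, was higher in 35S-GDU5, with 1.03 FPKM against 0.231 in Col. The part of handling or of cell types in the members' changes was not tested.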

How the data were processed

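RNA-seq of leaves was analysed from 7 tables that the authors deposited, 1 for each comparison. TopHat2, Cufflinks and Cuffdiff with TAIR10 are named in the submitters' processing notes, and versions, filters and the strand setting are not given in the sources used here. The deposited FPKM values are 1 value per gene and group, normalized within each table, so they carry no spread between libraries and no counts, and the depth is unknown. The authors' p-values and q-values were used as deposited. The deposited test statistic, a score, served in an alternative. Log2 fold changes were recomputed from the deposited FPKM with no pseudocount, and each standard error is the size of the change divided by the normal deviate of its p-value.

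The difference between times used a normal approximation across all rows, as the tables hold no library values. Analyses ran in Python 3.11.15 with pandas 2.3.3, scipy 1.17.1 and biopython 1.88. Names were matched to RefSeq TAIR10.1 for all 87 rows, and upstream windows were read from that genome. Strand was inferred from the order of rows, which matched the annotation in 98.0% of 21762 rows named by locus. Rows on the other strand carry that remark.

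Named were called members of at least 1 FPKM, up to 8 per class and direction by size for Dex-GDU1 and gdu1-1D and up to 5 for other lines, up to 8 per class by difference between times, the 5 called most often, members of known role, and called genes of the lists. RLP2, RLP55, RLP56 and CRK22, and others named outside this rule, were chosen after their values were seen. The members and lists were chosen with earlier results of these data known.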

Additional observations from a re-analysis of the deposited data

Results flagged for a closer look

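The change of Dex-GDU1 over 4c-S7 differed between 25 h and 7 h in the named members below, by the difference of log2 changes with Benjamini-Hochberg adjustment over 17114 rows. Among CRK rows the difference, 25 h minus 7 h, was 1.55 for CRK6 and CRK8, 1.51 for CRK14, 1.30 for CRK37 and CRK38, 1.29 for CRK7, 1.02 for CRK13 and 0.78 for CRK15. It was -2.39 for the row of CRK30, CRK31 and CRK32 and -0.93 for the row opposite to CRK40. Among RLP rows it was 1.73 for RLP40 and RLP41, 1.62 for RLP38, 1.37 for RLP53, 1.12 for RLP34, 1.06 for RLP42, 0.92 for RLP49, 0.83 for RLP23 and 0.65 for RLP1. In 12 of these 16 rows the difference lost its call when standard errors were taken from the deposited test statistic, and the cause was not tested.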

How the results depend on the processing

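No paired analysis was possible because the tables hold 1 value per group and no values per library, and leaving out each replicate in turn was not run for the same reason. With q below 0.01, the libraries labelled 35S-GDU4 had 9 called CRK rows in place of 15 and 5 called RLP rows in place of 9. Without rows that join several genes, 11 CRK rows were called at 25 h in place of 18, since 7 of the called rows are joined. Standard errors from the test statistic left 3 CRK rows in place of 15 and 1 RLP row in place of 14 with a difference between times. The median of CRK rows in the libraries labelled 35S-GDU4, 0.003, turned to -0.0927 without joined rows, an alternative added after seeing the data. The same alternative moved 7 other medians: 25 h RLP 0.43 to 0.57, gdu1-1D CRK 0.85 to 1.02 and RLP 1.03 to 1.45, 35S-GDU2 CRK 0.43 to 0.94, 35S-GDU5 CRK 1.41 to 1.60 and RLP 1.46 to 1.67, and 35S-GDU6 RLP 0.03 to 0.15. Counts called stayed within 1.5 times the main count with an FPKM of at least 1, with the adjustment redone over such rows, with CDPK-related kinases added and, added after seeing the data, without opposite-strand rows. Centring on the median row turned no direction, and a pseudocount of 1 moved 7 named values and left 122 in place. At q below 0.01, 14 of the 115 named changes lost their call. Depth is unknown, so no limit for values of 0 can be given.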
